A study of Mus musculus with 4 samples.

Results

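Plasmacytoid dendritic cells (pDC) were 79 of 43432 colonic cells, enriched for leukocytes, of mice with chemically induced colitis, read by single-cell RNA sequencing in 4 samples. Members were chosen by measured counts of transcript molecules, each carrying a unique molecular identifier (UMI). A pDC had at least 3 UMIs of Siglech, a sialic acid-binding receptor of mouse pDC, and at least 3 UMIs in all of Tcf4, the transcription factor that specifies the lineage, and Bst2, a surface protein of these cells. It also had no UMI of Cd3e or Cd3d (T cells), Cd79a (B cells), Ngp (immature neutrophils), C1qa (macrophages) or Fcgr1 (monocytes and macrophages). Of the 45229 deposited cells, the 43432 with 200 or more genes and a mitochondrial share below 20% of UMIs were searched. Since these 9 genes chose the cells, their levels are not a result, and the contrast between pDC and other cells is described without a test.

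Mice received drinking water with 2% dextran sulfate sodium (DSS), a salt toxic to the lining of the colon, for 7 days, and colons were taken on day 8. Each sample was a mixture of the colons of 3 mice, from which leukocytes carrying the pan-immune protein CD45 were enriched on magnetic beads, and droplet libraries were made from them. The series concerns wild-type and aryl hydrocarbon receptor (AhR)-null mice, aged 10 weeks in the sample labels and 8 weeks in the paper, but the labels of the 4 samples give DSS and a number and no genotype. The samples were therefore each read on their own, and nothing was averaged, tested or compared by genotype. No cells of untreated mice were analysed here, so nothing below is a response to DSS.

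pDC are a circulating dendritic cell type with the look of a secretory lymphocyte, best known for releasing type I interferon when Toll-like receptors 7 and 9 meet viral or self nucleic acid in endosomes. The E protein TCF4 keeps their identity, and the inhibitor ID2, which blocks E proteins, favours conventional dendritic cells (cDC) instead. In the gut they are known to enter the lamina propria through the chemokine receptor CCR9.

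Samples 1 to 4 held 31, 13, 20 and 15 pDC among 10986, 13223, 11164 and 8059 filtered cells. Sample 1 had the highest share of pDC at 0.282%, with an exact 95% binomial interval of 0.192% to 0.400%. Sample 2 had the lowest at 0.0983% (0.0524 to 0.168). Samples 3 and 4 lay between them at 0.179% (0.109 to 0.277) and 0.186% (0.104 to 0.307). The intervals of samples 1 and 2 do not overlap, and those of samples 3 and 4 overlap with both. Intervals here and below cover counting error only, not the variation between mice. The labels do not say whether the samples were separate experiments.

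The condition on excluded genes changed this order. Of 418 cells with a Siglech UMI, 244 had at least 3 and 243 of those also met the condition on Tcf4 and Bst2, but the excluded genes then removed 36, 76, 31 and 21 cells in samples 1 to 4. The cells removed held 2.57, 2.93, 2.56 and 2.25 times the median UMIs of the members, and 29 of the 164 were marked as doublets by Scrublet, as were 2 of the 79 members, which were kept. Their median Siglech count was 12, 9, 11 and 10 UMIs, beside 12, 11, 10.5 and 16 in the members. Without the excluded genes the shares were 0.610%, 0.673%, 0.457% and 0.447%, so that sample 2 moved from the lowest to the highest. Their intervals all overlapped, at 0.473 to 0.774, 0.541 to 0.828, 0.34 to 0.6 and 0.313 to 0.618%, so this second order lies within counting error. Cd79a, found in 100 of the removed cells, had a UMI in 43.0% of all filtered cells of sample 1 and 55.0% of sample 2, but in 8.92% of sample 3 and 13.3% of sample 4. How far free RNA, doublets or cells of mixed identity account for the removed cells was not tested.

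**Figure D1:**
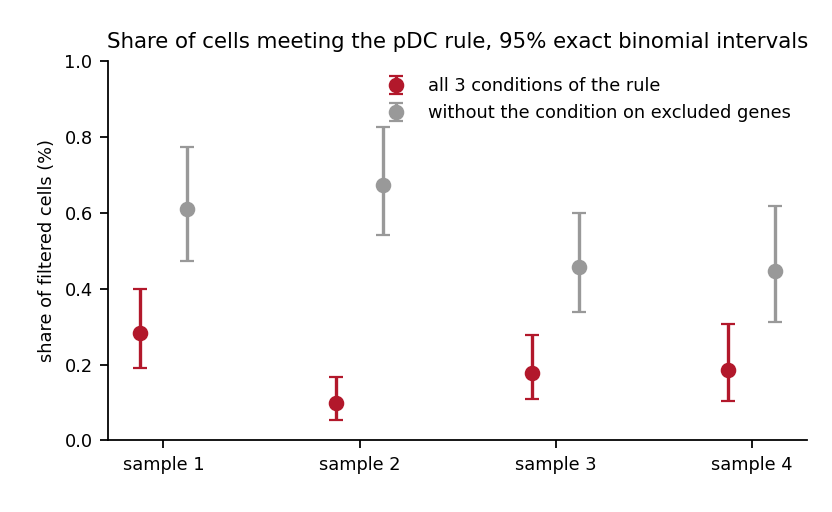
Share of filtered cells (%) that met the pDC rule in each sample, with all 3 conditions (red) and without the condition on excluded genes (grey), with exact 95% binomial intervals as bars. With all conditions sample 2 is lowest at 0.0983%, and without excluded genes it is highest at 0.673%, where the intervals of all samples overlap.

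Most members lay well above the Siglech threshold. They held 3 to 30 Siglech UMIs per cell with a median of 12, and 3 to 119 Tcf4 UMIs with a median of 36. The 10 members just inside the threshold, with 3 to 5 Siglech UMIs, had median counts of 8.5 Irf8, 5.5 Ccr9 and 4.5 Ly6d UMIs. The 11 cells just outside it, with 2 Siglech UMIs and the other conditions met, had medians of 0, 1 and 0 for the same genes, although their Tcf4 median was 42. The 3 genes were not used by the rule. Cells of all samples were pooled here, and both sides overlapped. Outside the threshold Irf8 reached 19 and Ccr9 6 UMIs in a cell, and inside it both went down to 0.

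pDC were somewhat deeper than the filtered cells as a whole. Median UMIs per pDC were 10301, 7771, 8375.5 and 9894 in samples 1 to 4, against 7464, 6170, 6469 and 6091 over all filtered cells. Summed over the pDC of a sample the counts came to 348433, 121295, 193161 and 120072 UMIs, so that 1 UMI was worth 2.87, 8.24, 5.18 and 8.33 CPM, the unit used below for levels, which scales the counts of each population and sample to the same total. A gene with no UMI in a sample is given as 0 CPM and entered the ratios below as 0 with 10 CPM added. As a guide to depth, 3 UMIs are 8.61, 24.7, 15.5 and 25.0 CPM. The exact 95% Poisson interval at 0 UMIs ends higher, at 10.6, 30.4, 19.1 and 30.7 CPM. No cell barcode was a pDC in more than 1 sample, and 1 pDC barcode of sample 1 or 2 was also among the cells of the other, where pairs of samples shared 23 to 49 barcodes in all.

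Irf8, Ccr9, Ly6d, Runx2, Spib, Cox6a2 and Klk1, the pDC markers that the rule did not use, were each detected in the pDC of all 4 samples. Ccr9 was found in 100%, 100%, 95% and 100% of the pDC of samples 1 to 4, and in 3.26%, 2.38%, 2.83% and 1.84% of cells gated as B cells, whose median depth was 6119, 5316, 6345 and 6356 UMIs. With each cell thinned to 1000 UMIs the expected shares were 80.1%, 78.3%, 74.7% and 86.3% in pDC and 0.426%, 0.338%, 0.527% and 0.307% in those B cells.

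Of the B cell markers Ighm was well detected in the members, while Pax5 and Cd79b were at or near 0. Pax5, the factor that holds B cell identity, had 2 UMIs in sample 1 and none in the others, and Cd79b did not exceed 17.2 CPM. The 7 B cell markers without Cd79a summed to 961, 816, 802 and 1066 CPM in the pDC of samples 1 to 4, nearly all of it Ighm, and to 2565, 3323, 463 and 864 CPM in all other cells. The 8 T cell markers without the genes of the rule summed to 333, 371, 134.6 and 166.6 CPM, beside 305, 789, 413 and 575 CPM in all other cells, and their most abundant genes in the pDC were Cd8a in samples 1 and 2 and Cd4 in samples 3 and 4, which mouse pDC are known to carry. Cd8a counted as higher in pDC than in each of the 4 populations, and Cd3g, Trac, Trbc1 and Trbc2 counted as lower than in all other cells. Since the rule left out cells with Cd3e, Cd3d or Cd79a, low levels of other T and B cell markers are in part fixed by it. The 6 cDC1 markers outside the gates summed to 841, 1031, 870 and 1424 CPM, most of it Irf8, with Tlr3 at 0, and the 7 cDC2 markers to 743, 725.5, 833.5 and 658 CPM, led by Sirpa. The 6 markers of mature dendritic cells summed to 31.6, 49.5, 56.95 and 58.3 CPM, beside 225, 280.1, 468 and 282 CPM in all other cells, with Ccl22 at 0. The 8 markers of natural killer and innate lymphoid cells summed to 293, 297, 207 and 208 CPM, most of it Il7r, with Il22 at 0. The 8 plasma cell markers summed to 528, 1566, 336.5 and 258 CPM, beside 7690, 31630, 8124 and 5410 CPM in all other cells, led by Igkc in samples 1 to 3, with Igkc and Mzb1 level in sample 4, with Tnfrsf17 at 0. The 6 epithelial markers summed to 118, 148, 186 and 275 CPM, beside 275, 531, 285 and 895 CPM in all other cells, most of it Cdh1, with Krt18 and Krt20 at 0, and the 6 endothelial markers to 528, 354.5, 373 and 733 CPM, most of it Pecam1, which leukocytes carry too, with Vwf, Plvap and Esam at 0, beside 167, 146.6, 159 and 148 CPM in all other cells. Cdh5, the cadherin of endothelial cells, counted as higher in pDC than in each of the 4 populations, also over all 4 samples, at 91.8, 98.9, 62.1 and 49.97 CPM in pDC and 5.27, 1.935, 12.7 and 8.09 CPM in all other cells. Red cell genes were at 0 in all 4 samples, and of the 6 mast cell and basophil genes only Mcpt1 was seen, with 2 UMIs in sample 2.

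Markers of monocytes, neutrophils and fibroblasts were present, and most of their UMIs came from a few cells. The rule left out cells with Ngp, C1qa or Fcgr1, so lower neutrophil and macrophage marker sums in pDC are in part fixed. The 10 monocyte and macrophage markers without the rule's genes summed to 551, 453, 1626 and 2523 CPM in the pDC of samples 1 to 4, beside 3618, 2429, 5199 and 4738 CPM in all other cells. Their most abundant gene in the pDC was Cd14 in samples 1 and 2 and Chil3 in samples 3 and 4, and Ms4a7 was at 0 in samples 1, 2 and 4. The 3 members with most of these UMIs held 80.7%, 58.2%, 72.9% and 98.35% of them. Members with 10 or more such UMIs numbered 2, 2, 4 and 2, and 1 further member of sample 3 held 113 fibroblast UMIs, 98 of them from Dcn, a collagen-binding proteoglycan. These 11 cells each had at least 3 Ccr9 UMIs. The 8 neutrophil markers summed to 2617, 4304, 3841 and 707.9 CPM in the pDC and to 26480, 6460, 24304 and 29940 CPM in all other cells, led by S100a8 and S100a9, while Ltf, a granule protein gene, was at 0 in the pDC of all 4 samples. Among members 3, 3, 7 and 2 held 10 or more neutrophil UMIs, and 5 of these are not among the 11 cells and were kept. Levels of Id2, Ly6d, Nlrp3, Saa3, Chil3 and Hmox1 are given below with and without the 11 cells. Scrublet, a doublet caller, marked 1, 0, 1 and 0 members of samples 1 to 4. The part of free RNA in these markers was not tested.

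**Figure D2:**
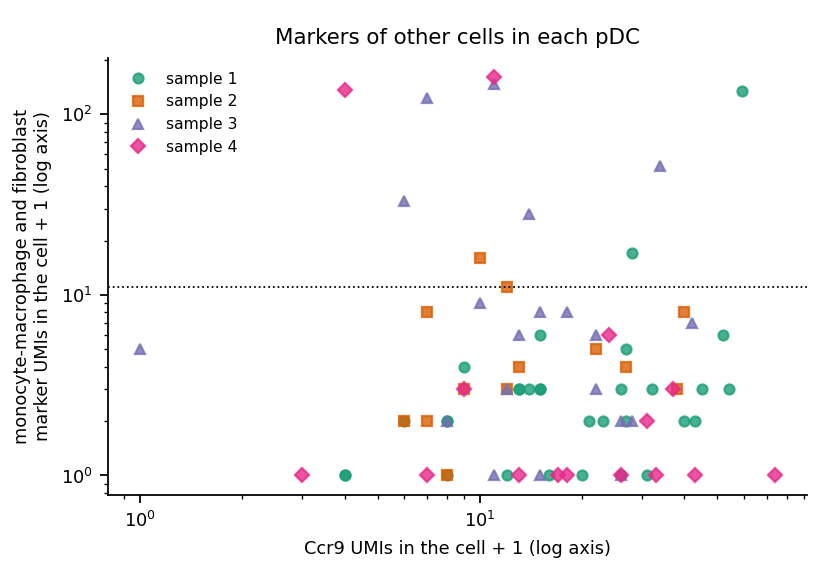
UMIs of monocyte-macrophage and fibroblast markers in each of the 79 pDC (vertical, plus 1, log axis) against its Ccr9 UMIs (horizontal, plus 1, log axis), with 1 point per cell and symbols for the 4 samples. The dotted line marks 10 UMIs, and the 11 cells on or above it carry 3 or more Ccr9 UMIs.

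pDC were set beside 3 other populations of the same samples, cut from the same cells by fixed counts of marker genes, and beside all other cells. These were 82 cells gated as cDC1 (the cross-presenting cDC, by Xcr1 and Clec9a), 73 gated as cDC2 (by Cd209a) and 3650 gated as B cells (by Cd79a and Ms4a1), with MHC class II required in both cDC gates. A gene was counted as higher when the ratio of its levels, each with 10 CPM added, was at least 2 in every sample with at least 20 cells of both populations, and as lower when it was at most 0.5. That left samples 1 and 3 for cDC1-gated, B-gated and all other cells, and sample 1 alone for cDC2-gated cells. Among genes with a mean of at least 20 CPM and outside the gates, 707 of 6008 (11.8%) were higher and 390 (6.49%) lower in pDC than in cDC1-gated cells. Against cDC2-gated cells 984 of 5973 (16.5%) were higher and 740 (12.4%) lower. Against B-gated cells 540 of 6239 (8.66%) were higher and 386 (6.19%) lower, and against all other cells 435 of 6277 (6.93%) and 510 (8.12%). Asked in all 4 samples with at least 10 cells of both, a setting added after the data had been seen, 428 (7.25%) were higher and 256 (4.34%) lower than in cDC1-gated cells, 365 (6.15%) and 227 (3.83%) than in cDC2-gated, 381 (6.16%) and 264 (4.27%) than in B-gated and 295 (4.70%) and 286 (4.56%) than in all other cells. Log2 ratios below are on the scale of CPM with 10 added, and the median over all genes tested was 0.21, 0.09, -0.03 and 0.05 against the 4 populations. Scaling by the median of ratios moved it by 0.11, 0.10 and 0.13 in samples 1 to 3 against cDC1-gated cells and by 0.14 in sample 4 against all other cells.

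A list of 25 genes known from mouse pDC, without those of the rule, was higher in pDC almost throughout. All 25 passed the filter on low levels, and 19 were higher than in cDC1-gated cells (11.8% of all genes tested were), 21 than in cDC2-gated (16.5%), 21 than in B-gated (8.66%) and 21 than in all other cells (6.93%), with none lower. The median log2 ratio over the list was 3.52, 3.44, 2.97 and 2.84, beside the 0.21, 0.09, -0.03 and 0.05 of all genes tested. In all 4 samples the counts were 19, 18, 21 and 20 of 25. Since cells were picked by 3 genes of the same programme, these counts describe the cells picked and are not independent evidence of their identity.

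Ccr9, the receptor for the gut chemokine CCL25, separated pDC most widely from the 3 gated populations (gene at chr9:123678439-123784330, plus strand, GRCm38). It stood at 1960, 1632, 1662 and 2790 CPM in the pDC of samples 1 to 4. In cDC1-gated cells it was at 6.25, 41.05, 8.85 and 0 CPM, and in B-gated cells at 4.32, 3.85, 6.75 and 4.75 CPM. In sample 2, where the gap was smallest, the exact 95% Poisson intervals were 1413 to 1876 CPM in pDC and 16.5 to 84.6 CPM in cDC1-gated cells, far apart. The smallest log2 ratio over the 3 gated populations and 4 samples was 5.01. In all other cells Ccr9 was at 11.99, 21.5, 16.9 and 28.6 CPM.

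Blnk, an adaptor that couples the kinase SYK to its targets in B cells, was at 2187, 1731, 1538 and 2157 CPM in pDC. B-gated cells had 462, 426, 553 and 487 CPM, so that each pDC sample lay above each B-gated one. Ly6d, a surface protein of lymphoid progenitors and pDC, stood at 1817, 1253, 481.5 and 783 CPM, widely spread and lowest in sample 3. Its levels in B-gated cells were 393, 364, 176 and 188 CPM, also lower in samples 3 and 4 than in 1 and 2, and without the 11 cells rich in monocyte-macrophage or fibroblast markers the pDC levels were 2001, 1268, 749 and 944 CPM. Tex2, a lipid-binding protein of the endoplasmic reticulum, was even across the samples at 1524, 1459, 1201 and 1432 CPM, and no other population exceeded 117 CPM in any sample. Cox6a2, a subunit of cytochrome c oxidase otherwise known from heart and muscle, was at 476, 396, 166 and 325 CPM in pDC. Outside pDC it did not pass 2.46 CPM in any population or sample.

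Also on the list were 3 immunoglobulin-like receptors. Lair1, an inhibitory receptor for collagen, was at 634, 420.5, 647 and 708 CPM in pDC and did not pass 67.6 CPM in the other populations. Lag3, an inhibitory receptor better known from T cells, was at 68.9, 82.4, 77.7 and 58.3 CPM against 0.572, 0.986, 0.675 and 0 CPM in B-gated cells. Cd300c was at 158, 98.9, 119 and 149.9 CPM and at 7.26 CPM or less elsewhere.

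Some of the list genes that were not higher everywhere stood at similar or higher levels in another population. Irf8, a factor that both pDC and cDC1 need, stood at 677, 767, 564 and 1166 CPM in pDC and at 577, 516, 248 and 219.6 CPM in cDC1-gated cells, overlapping in range, although pDC were above cDC1-gated cells in each of the 4 samples. Cadm1, an adhesion molecule of cDC1, was at 115, 231, 269 and 225 CPM in pDC and at 717.5, 739, 467 and 1107 CPM in cDC1-gated cells. Runx2, which pDC need to leave the bone marrow, was at 419, 651, 450.4 and 491 CPM in pDC and at 677, 536, 755 and 534 CPM in cDC2-gated cells, whose ranges overlap. Irf7, the factor that amplifies interferon production, was low in pDC at 40.2, 16.5, 41.4 and 16.7 CPM, and its intervals overlapped with those of cDC1-gated cells in each sample.

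**Figure D3:**
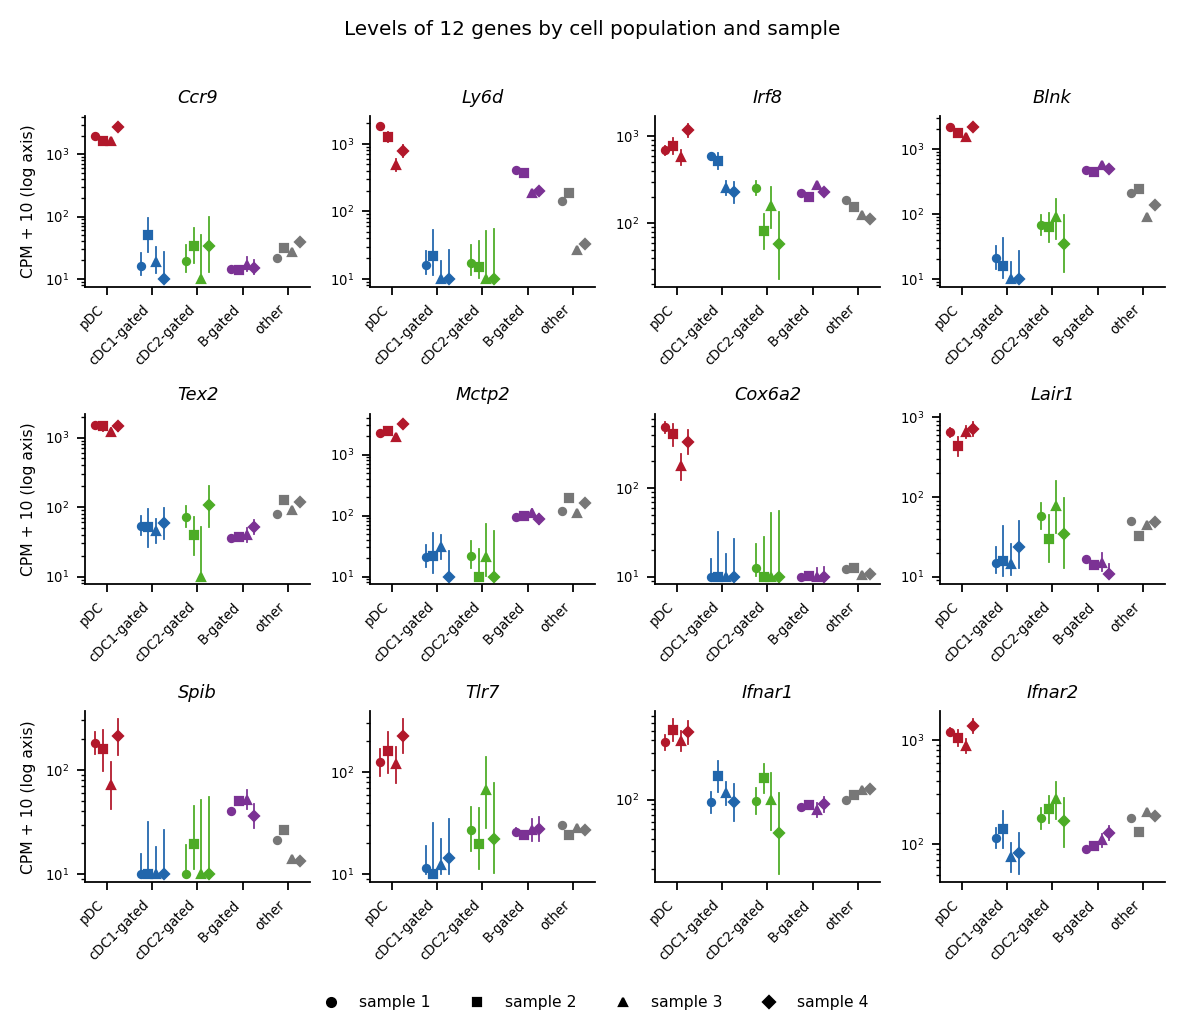
Level (CPM plus 10, log axis) of 12 genes in pDC, cDC1-gated, cDC2-gated, B-gated and all other cells, with 1 symbol per sample and exact 95% Poisson intervals as bars. For Ccr9, Mctp2, Tex2 and Cox6a2 the pDC symbols stand apart from those of the other populations, and for Irf8 the pDC and cDC1-gated symbols overlap.

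The promoters of the identity list were searched for 2 E-boxes, the kind of site that E proteins such as TCF4 bind, since Tcf4 chose the cells. The letters sought were CAGGTG, which appears as CACCTG when it lies on the other strand, and CAGCTG, which reads the same on both strands, in the window from 250 bases before to 50 after the start in RefSeq (GRCm38.p6). Of the 25 list genes 18 had a window. CAGGTG was in 4 of these 18 (22.2%), beside 5413 of all 27025 windows (20%), and CAGCTG in 1 of 18 (5.56%), beside 4353 (16.1%). Among the 15 genes chosen by ratio, described next, 11 had a window, with CAGGTG in 2 (18.2%) and CAGCTG in 1 (9.09%). The shares for CAGGTG were near that of all windows. The windows of 3 genes high in pDC are shown, with the E-box letters in capitals, at chr9:123766961-123767260 for Ccr9 (plus strand), chr7:72306546-72306845 for Mctp2 (minus strand) and chr19:40994172-40994471 for Blnk (minus strand), read 5′ to 3′ on the strand of the gene. In the GENCODE annotation the Ccr9 gene begins before its window, Mctp2 spans chr7:72077830-72306608 and Blnk chr19:40928927-40994535. The E-box starts 85 bases before the start of Ccr9, 150 (CACCTG) and 131 (CAGCTG) before that of Mctp2 and 160 before that of Blnk. A match is a string of letters and not a bound site.
Ccr9: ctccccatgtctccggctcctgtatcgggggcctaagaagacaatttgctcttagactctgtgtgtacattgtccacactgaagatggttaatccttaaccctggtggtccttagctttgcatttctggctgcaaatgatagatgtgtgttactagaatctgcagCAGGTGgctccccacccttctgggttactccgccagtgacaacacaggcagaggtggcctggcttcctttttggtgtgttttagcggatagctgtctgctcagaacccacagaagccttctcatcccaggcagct
Mctp2: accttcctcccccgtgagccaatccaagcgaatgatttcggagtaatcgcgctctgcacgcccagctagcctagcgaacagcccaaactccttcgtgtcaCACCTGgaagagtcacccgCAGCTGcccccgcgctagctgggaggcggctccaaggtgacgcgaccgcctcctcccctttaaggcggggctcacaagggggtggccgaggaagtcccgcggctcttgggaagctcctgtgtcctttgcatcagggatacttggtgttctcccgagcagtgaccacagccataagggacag
Blnk: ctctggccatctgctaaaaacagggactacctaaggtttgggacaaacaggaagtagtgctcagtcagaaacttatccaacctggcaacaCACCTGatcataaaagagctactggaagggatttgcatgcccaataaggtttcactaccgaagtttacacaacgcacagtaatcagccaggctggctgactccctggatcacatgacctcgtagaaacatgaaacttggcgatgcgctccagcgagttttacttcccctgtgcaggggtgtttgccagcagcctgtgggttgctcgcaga

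Of the 15 genes whose smallest log2 ratio over the 3 gated populations and 4 samples was largest, 5 were on the identity list (Ccr9, Cox6a2, Tex2, Atp1b1 and Lair1). Mctp2, a calcium-binding membrane protein, was at 2262, 2383, 1895 and 3140 CPM in pDC and at 83.2, 88.01, 101 and 77.6 CPM in B-gated cells. Lrp8, a receptor for reelin and apolipoprotein E, was at 849.5, 594, 523 and 816 CPM in pDC and did not pass 34.2 CPM elsewhere. Genes better known from neurons were among them. Grm8, a metabotropic glutamate receptor, stood at 508, 841, 139.8 and 199.9 CPM and Gria3, a subunit of ionotropic glutamate receptors, at 221, 124, 197 and 416 CPM. Grm8 was at 0 in all cDC1-gated and cDC2-gated cells, while Gria3 reached 12.1 CPM there. Cdh22, a cadherin, was at 149, 124, 135 and 167 CPM in pDC and at no more than 1.35 CPM elsewhere. The kinase gene Rps6ka1 was at 344, 486, 248.5 and 508 CPM, and Atp1b1, a subunit of the sodium pump, at 275.5, 486, 274 and 266.5 CPM. Arhgap32, a GTPase-activating protein, was at 376, 462, 357 and 349.8 CPM. Sh3bgr, at 181, 107, 77.7 and 66.6 CPM, and the predicted gene Gm21762, at 410.4, 329.8, 228 and 216.5 CPM, did not pass 1.80 CPM in any other population.

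The 10 genes on the opposite side began with Cd83, Ipcef1, Arhgap26 and Pdcd1lg2. Cd83, which stabilises MHC class II on activated cells, was at 31.6, 223, 20.7 and 41.6 CPM in pDC, highest in sample 2. In cDC1-gated cells it was at 575, 973.5, 832 and 954 CPM and in B-gated cells at 808, 909.9, 769 and 1144 CPM. Pdcd1lg2, which encodes the inhibitory ligand PD-L2, was at 2.87, 0, 10.35 and 0 CPM in pDC, 3 UMIs in all. cDC1-gated cells held 175, 152.5, 294 and 242 CPM of it. Atp2b1, a calcium pump of the plasma membrane, was at 164, 256, 429.7 and 283 CPM in pDC and at 731, 689, 1196 and 1108 CPM in B-gated cells. Ipcef1 had no UMI in the pDC of any sample, and cDC1-gated cells had 125, 158, 88.5 and 287 CPM of it. The others were Arhgap26, Rasgef1b, Hivep2, Crybg1, Sipa1l1 and B3gnt5. Arhgap26 was at 94.7, 198, 114 and 24.99 CPM in pDC and at 781, 1033, 1385 and 703 CPM in cDC2-gated cells.

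Among 20 transcription factors of dendritic and lymphoid cells, of which Tcf4 belongs to the rule, 8 of the 18 tested were higher and 4 lower in pDC than in cDC1-gated cells. Against cDC2-gated cells 6 of 16 were higher and 4 lower, against B-gated cells 4 and 1 of 16, and against all other cells 7 and 1 of 16. Among all genes tested the shares were 11.8%, 16.5%, 8.66% and 6.93% higher and 6.49%, 12.4%, 6.19% and 8.12% lower. In all 4 samples the counts were 7 and 3 of 17, 4 and 1 of 16, 4 and 1 of 16, and 5 and 1 of 18. Tcf12, which encodes the E protein HEB, stood at 2861, 3009, 1631 and 2790 CPM in pDC. It was at 155, 152.5, 164 and 139 CPM in cDC1-gated cells and at 1472, 1663, 1415 and 1689 CPM in B-gated cells, the latter overlapping with pDC. Spib, a factor shared by pDC and B cells, was at 172, 148, 62.1 and 199.9 CPM in pDC, lowest in sample 3, and at 30.8, 40.4, 41.85 and 26.1 CPM in B-gated cells, with no UMI in any cDC1-gated cell. Mef2c, a factor of lymphoid and myeloid fate, was at 1765, 1921, 2418 and 2832 CPM in pDC and at 2147, 2300, 1519 and 2027 CPM in B-gated cells. pDC and B-gated cells thus overlapped for Tcf12 and Mef2c, and not for Spib. The median log2 ratio over the list was 1.18, -0.35, 0.78 and 0.45 against the 4 populations.

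Batf3, which cDC1 need, had 4 UMIs in all pDC and stood at 109, 117, 79.7 and 71.7 CPM in cDC1-gated cells. Zbtb46, a factor of both cDC types, was at 5.74, 49.5, 0 and 8.33 CPM in pDC and at 96.7, 77.2, 90.1 and 169.8 CPM in cDC2-gated cells. Id2, the inhibitor of E proteins, was at 57.4, 49.5, 331 and 183 CPM in pDC. cDC1-gated cells held 453, 317, 1073 and 1035 CPM of it and all other cells 249.8, 215, 1043 and 811 CPM, so that samples 3 and 4 were above 1 and 2 in all 3. Without the 11 cells rich in monocyte-macrophage or fibroblast markers Id2 was at 24.1, 19.7, 131 and 41.0 CPM in pDC. Zeb2, which represses Id2, was at 1182, 1352, 2702 and 1816 CPM in pDC and at 233, 46.9, 536 and 367 CPM in cDC1-gated cells, but all other cells, at 2241, 1078, 3361 and 2727 CPM, were above pDC in samples 1, 3 and 4.

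Of the 2 Toll-like receptors that pDC are known for, Tlr7 was readily seen and Tlr9 was not. Tlr7, the receptor for single-stranded RNA, was at 115, 148, 109 and 216.5 CPM in pDC. It was at 1.56, 0, 2.21 and 4.48 CPM in cDC1-gated cells and at 16.1, 13.98, 16.9 and 17.4 CPM in B-gated cells, below pDC in every sample. A Tlr7 UMI was found in 44 of the 79 pDC. With each cell thinned to 1000 UMIs the expected share of cells with one was 10.5%, 15.2%, 9.29% and 15.7% in pDC, beside 1.45%, 1.45%, 1.70% and 1.28% in B-gated cells, whose median depth was 6119, 5316, 6345 and 6356 UMIs. Tlr9, the receptor for DNA, had 3 UMIs in 3 of the 79 pDC and did not pass 9.65 CPM in any population.

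The machinery that serves these receptors was mostly present. Unc93b1, the chaperone that carries Toll-like receptors to endosomes, was at 583, 478, 383 and 591 CPM in pDC and at 258, 224, 165 and 199 CPM in B-gated cells. Slc15a4, an endosomal transporter that pDC need to make interferon, was at 68.9, 98.9, 72.5 and 66.6 CPM in pDC, and at 20.4, 22.1, 16.5 and 17.9 CPM in all other cells. Tlr3, a receptor for double-stranded RNA that cDC1 carry, had no UMI in pDC, and was at 12.5, 46.9, 30.98 and 31.4 CPM in cDC1-gated cells. Over the 20 sensing genes 1 was higher and 1 lower of the 15 tested against cDC1-gated cells, 5 and 1 of 15 against cDC2-gated, 3 and 0 of 14 against B-gated and 4 and 3 of 17 against all other cells. The shares among all genes tested were 11.8%, 16.5%, 8.66% and 6.93% higher and 6.49%, 12.4%, 6.19% and 8.12% lower, and the counts against cDC1-gated cells lay at or below them. Tlr2, Tlr4 and Tlr13, receptors for microbial products that phagocytes use, were the 3 lower than in all other cells. The median log2 ratio over the list was 0.45, -0.03, 0.48 and 0.06. Tlr7 was higher against each population, but in all 4 samples it was not counted against cDC2-gated cells, where the counts were 0 and 0 of 15. Against cDC1-gated, B-gated and all other cells they were then 1 and 0 of 14, 2 and 0 of 14, and 3 and 2 of 17.

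Type I and type III interferon transcripts were close to absent. Over 20 type I and type III interferon genes, 2 UMIs were found in 2 of the 79 pDC (2.53%, exact 95% binomial interval 0.308 to 8.85), 1 in sample 1 and 1 in sample 3. No pDC of samples 2 and 4 had one, where 3 cells would be 23.1% and 20%. In all other cells the share was 0.803%, inside the interval of pDC, and in B-gated cells it was 0.110%. In sample 1, 2 cDC1-gated cells held 52 such UMIs. At this number of cells only a large difference between pDC and all other cells could be seen, and none was. The B-gated share lay below the interval of pDC. That interval rests on 2 UMIs and pools the samples, and the B-gated cells were shallower than pDC. Ifng, the type II interferon, had 9 UMIs in 1 pDC of sample 1 and none in the pDC of the other samples, and was at 51.15, 18.8, 14.02 and 20.5 CPM in all other cells.

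Both chains of the type I interferon receptor were higher in pDC than in all 4 populations, and also in all 4 samples. Ifnar2, the chain with the long signalling tail, was at 1191, 1047, 869.7 and 1358 CPM in pDC. In cDC1-gated cells it was at 105, 129, 64.2 and 71.7 CPM, in B-gated cells at 78.5, 84.3, 97.9 and 118 CPM and in all other cells at 169, 121, 193.5 and 177.5 CPM. The log2 ratio to all other cells was 2.11 to 3.01 over the samples. Ifnar1, its partner chain, was at 373, 503, 388 and 475 CPM in pDC and at 90.2, 100.4, 115 and 119.5 CPM in all other cells. Ifngr1, a chain of the receptor for type II interferon, went the other way against cDC1-gated cells, at 158, 198, 119 and 125 CPM in pDC and 392, 557, 279 and 296 CPM there. Of 6 interferon receptor genes 5 were tested, and 3 were higher and 1 lower than in cDC1-gated cells, 2 and 1 than in cDC2-gated, and 2 and 0 than in both B-gated and all other cells, with median log2 ratios of 1.28, 0.97, 0.95 and 0.20. All genes tested were 11.8%, 16.5%, 8.66% and 6.93% higher and 6.49%, 12.4%, 6.19% and 8.12% lower. Over all 4 samples the counts were 2 and 1, 2 and 0, 2 and 0, and 2 and 0 of 5, so that Il10rb against cDC1-gated cells and Ifngr1 against cDC2-gated cells, which rested on sample 1 alone, no longer counted.

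Genes that interferon induces were mixed. Of 26 such genes 24 were in the files and 9 to 13 passed the filter on low levels. Of these 1 was higher and 1 lower of 13 against cDC1-gated cells, 2 and 3 of 11 against cDC2-gated, 1 and 0 of 9 against B-gated and 1 and 5 of 12 against all other cells. Over the tested genes the median log2 ratio was -0.60, -0.39, 0.58 and -0.83. Among all genes tested 11.8%, 16.5%, 8.66% and 6.93% were higher and 6.49%, 12.4%, 6.19% and 8.12% lower. The counts over all 4 samples were 1 and 0 of 12, 1 and 1 of 12, 1 and 0 of 9, and 1 and 2 of 12, and Oasl2, Rtp4 and Ifih1 no longer counted as lower than in all other cells. Stat2, a partner in the factor that interferon activates, was counted as higher than in cDC2-gated, B-gated and all other cells, at 189, 98.9, 109 and 383 CPM in pDC and 36.8, 21.2, 30.2 and 22.3 CPM in all other cells. Against cDC1-gated cells the gene counted as higher was Ifi27l2a, at 350.1, 256, 197 and 99.9 CPM in pDC and 125, 46.9, 59.8 and 35.85 CPM in cDC1-gated cells. Ifit3 had no UMI in pDC and Ifit1 had 1. Isg15, a ubiquitin-like product of the response, was at 45.9, 8.24, 51.8 and 0 CPM in pDC and at 143, 38.8, 88.7 and 44.1 CPM in all other cells.

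Of 20 listed cytokine and chemokine genes 1 was higher and 4 lower of 14 tested against cDC1-gated cells, 2 and 4 of 9 against cDC2-gated, 1 and 0 of 13 against B-gated and 1 and 9 of 14 against all other cells. The shares higher were near those of all genes tested (11.8%, 16.5%, 8.66% and 6.93%), while 6.49%, 12.4%, 6.19% and 8.12% of all genes tested were lower. The 9 lower than in all other cells were Tnf, Il1a, Il1b, Ccl3, Ccl5, Cxcl2, Cxcl10, Cxcl16 and Gzmb, most of them known from phagocytes and cytotoxic lymphocytes. The median log2 ratio was 0.26, -0.88, 0.19 and -1.65, and in all 4 samples the counts were 1 and 1 of 12, 1 and 1 of 12, 1 and 0 of 10, and 0 and 6 of 14. Il12a, which encodes a subunit of interleukin 12, was at 28.7, 16.5, 93.2 and 41.6 CPM in pDC and had no UMI in cDC1-gated cells, but these were only 10, 2, 18 and 5 UMIs. Ccl4, a chemokine, stood at 465, 363, 445 and 791 CPM in pDC and at 62.5, 93.75, 136 and 283 CPM in B-gated cells, and overlapped with all other cells, at 219.5, 278, 575 and 649 CPM. Il6 and Tnfsf10, the death ligand TRAIL, had no UMI in pDC. Il1b was at 539.6, 371, 569.5 and 66.6 CPM, and in samples 1 to 4 1 cell held 67.0%, 62.2%, 33.6% and 50% of its UMIs.

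No antigen presentation gene was counted as higher in pDC than in any of the populations. Besides H2-Aa and H2-Ab1, which the gates used, 8 of the 13 listed presentation genes tested were lower than in cDC1-gated cells, 9 of 14 than in cDC2-gated, 7 of 14 than in B-gated and 1 of 13 than in all other cells, and none was higher. Of all genes tested 6.49%, 12.4%, 6.19% and 8.12% were lower, and the count against all other cells was near that share. As a list they had a median log2 ratio of -1.63, -1.22, -1.09 and -0.58. In all 4 samples the counts lower were 7 of 13, 4 of 13, 4 of 14 and 0 of 13, beside 4.34%, 3.83%, 4.27% and 4.56% of all genes tested. The 2 cDC gates asked for MHC class II counts, so these 2 contrasts are in part fixed by the gates. Cd74, the invariant chain that guides MHC class II, was at 2379, 4089, 1419 and 1916 CPM in pDC, highest in sample 2. It was at 14820, 13781, 9373 and 10557 CPM in cDC1-gated cells and at 8175, 7734, 4921 and 5201 CPM in B-gated cells, above pDC in every sample. H2-Eb1, a chain of MHC class II, was at 628.5, 1385, 311 and 625 CPM in pDC and at 5995, 6738, 4577 and 5744 CPM in cDC1-gated cells. H2-DMb1, which helps to load peptide, was at 86.1, 107, 51.8 and 58.3 CPM in pDC and at 578, 516, 314 and 453 CPM in cDC1-gated cells. Ciita, the master switch of the class II genes, had 4 UMIs in all pDC.

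H2-K1 and B2m of MHC class I did not share this. H2-K1, a class I heavy chain, was at 1541, 1270, 1646 and 1516 CPM in pDC and at 1182, 1020, 1255 and 1187 CPM in cDC1-gated cells. B2m, the light chain of class I, was at 1349, 1006, 1838 and 1899 CPM in pDC and at 1499, 1152, 1653 and 1566 CPM in all other cells. Neither was counted as higher or lower against any population. Tap1 and Tap2, the peptide transporter genes of the class I pathway, did count as lower than in cDC1-gated and cDC2-gated cells. Over all 4 samples they still counted against cDC1-gated cells, but no longer against cDC2-gated cells.

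Costimulation, the second signal that dendritic cells give to T cells, was low in the same way. All 5 genes tested were lower in pDC than in cDC1-gated cells, all 6 than in cDC2-gated, 3 of 5 than in B-gated and 3 of 4 than in all other cells, and none was higher, beside 6.49%, 12.4%, 6.19% and 8.12% lower among all genes tested. Their median log2 ratio was -2.95, -2.94, -1.71 and -2.01. In all 4 samples the counts were 4 of 5, 4 of 7, 3 of 5 and 0 of 3. Cd86, a ligand of CD28, was at 54.5, 346, 98.4 and 33.3 CPM in pDC. It stood at 622, 604, 799 and 461.5 CPM in cDC1-gated, 1332, 1428, 979.9 and 1601 CPM in cDC2-gated and 1143, 1019, 974 and 1345 CPM in B-gated cells. Cd80, the other ligand of CD28, was at 8.61, 41.2, 31.1 and 0 CPM in pDC and at 191, 193.5, 217 and 269 CPM in cDC1-gated cells. Cd40, the receptor for help from T cells, had 3 UMIs in all pDC. Cd274, which encodes PD-L1, was at 74.6, 124, 295 and 133 CPM in pDC and at 802, 381, 684 and 623 CPM in cDC1-gated cells, and the ranges did not overlap.

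The higher levels of sample 2 came in large part from 1 cell, looked up after its values had been seen. It held 37 of the 42 Cd86 UMIs of that sample's pDC, 24 of the 27 of Cd83, 4 of the 5 of Cd80, 5 of the 6 of Zbtb46 and 229 of the 496 of Cd74. It also had 30 Siglech, 119 Tcf4, 39 Ccr9 and 11 Irf8 UMIs, no Batf3 UMI, and 29555 UMIs in all. In samples 1, 3 and 4 the member with most Cd86 had 4, 4 and 2 of its UMIs and none of Cd83. Scrublet marked none of the 13 pDC of sample 2, this cell included.

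**Figure D4:**
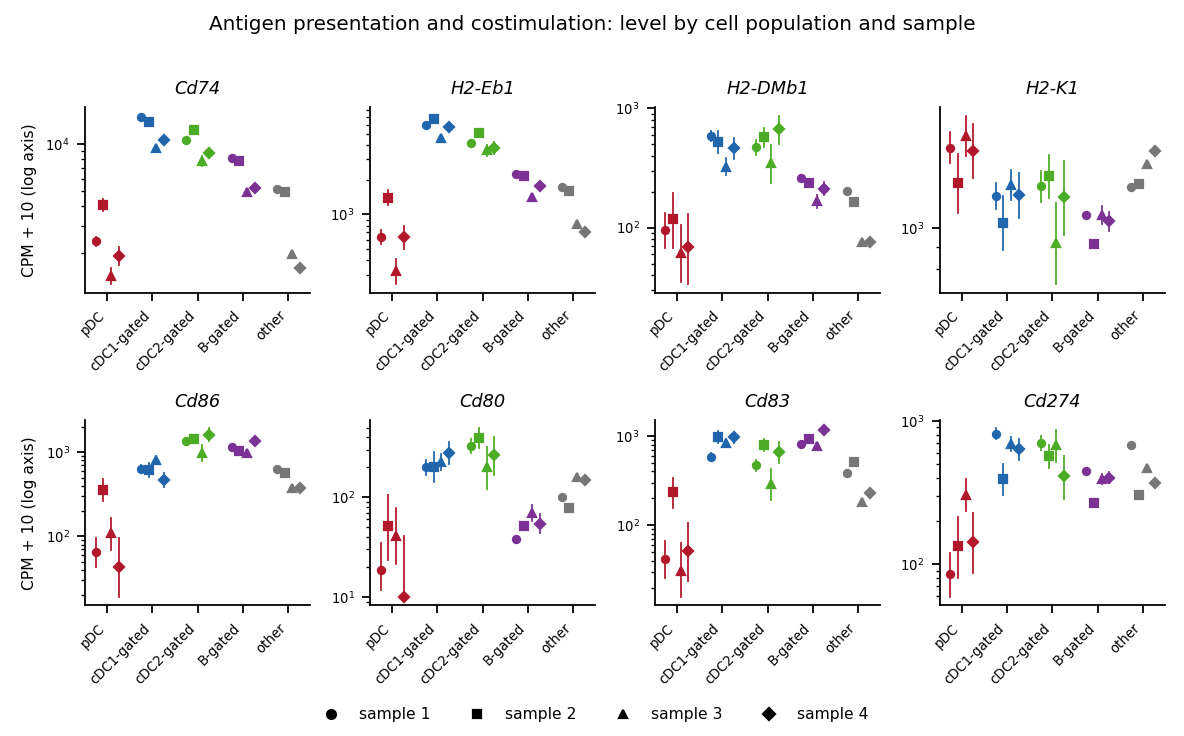
Level (CPM plus 10, log axis) of 4 presentation genes (top) and 4 costimulation or checkpoint genes (bottom) in pDC and the 4 other populations, with 1 symbol per sample and exact 95% Poisson intervals as bars. For Cd74, H2-Eb1, Cd80 and Cd83 every pDC symbol lies under every cDC1-gated one, and for H2-K1 the populations lie close together.

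Homing genes other than Ccr9 were mixed. Of 15 listed, 10 were tested in each contrast, with 2 higher and 2 lower than in cDC1-gated cells, 2 and 3 than in cDC2-gated, 4 and 2 than in B-gated and 2 and 1 than in all other cells, Ccr9 among the higher each time. Several of these counts lay near the shares among all genes tested, 11.8%, 16.5%, 8.66% and 6.93% higher and 6.49%, 12.4%, 6.19% and 8.12% lower. Their median log2 ratio was 0.69, -0.12, 0.42 and 0.12, and over all 4 samples the counts were 2 and 1 of 10, 1 and 1 of 11, 4 and 2 of 10, and 2 and 2 of 11. Without the 11 cells rich in monocyte-macrophage or fibroblast markers the 4 higher than in B-gated cells were 2. Ccr7, the receptor that draws mature dendritic cells to lymph nodes, was at 22.96, 49.5, 31.1 and 16.7 CPM in pDC and at 177, 93.8, 341 and 157 CPM in cDC1-gated cells. Of the chains of the gut integrin, Itga4 was at 508, 808, 321 and 616 CPM and Itgb7 at 106, 49.5, 36.2 and 16.7 CPM in pDC, with Itgb7 at 156, 240.4, 108 and 85.1 CPM in cDC1-gated cells. Itgb7 rested on 37, 6, 7 and 2 UMIs.

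Of 15 listed genes of the receptors and adaptors through which Siglec-H and its kind signal, all tested, 7 were higher and 0 lower than in cDC1-gated cells, 4 and 2 than in cDC2-gated, 5 and 1 than in B-gated and 5 and 1 than in all other cells. Among all genes tested 11.8%, 16.5%, 8.66% and 6.93% were higher and 6.49%, 12.4%, 6.19% and 8.12% lower. Blnk, Lair1, Lag3 and Cd300c, which are on the identity list too, were higher in each contrast and made up all 4 of those higher than in cDC2-gated cells, and the median log2 ratio was 0.84, 0.02, 0.93 and 0.04. Over all 4 samples the counts were 6 and 0, 4 and 2, 5 and 1, and 5 and 0 of 15. Syk against cDC1-gated cells and Lilrb4a against all other cells then no longer counted. Tyrobp, which encodes the adaptor DAP12 to which Siglec-H couples, was at 1797, 1492, 916 and 849.5 CPM in pDC. It was at 185, 184, 165 and 97.4 CPM in B-gated cells and at 1226, 1269, 969 and 570.0 CPM in cDC2-gated cells, the latter overlapping with pDC. Plcg2, a phospholipase downstream of SYK, was at 284, 280.3, 243 and 208 CPM in pDC and at 107, 116, 56.9 and 51.9 CPM in all other cells. Btk, a kinase of B cell receptor signalling, went the other way, at 22.96, 49.5, 20.7 and 58.3 CPM in pDC and 135, 126, 131 and 127.5 CPM in B-gated cells.

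Some genes of the B lineage were shared and others were not. Dntt, which encodes the enzyme that adds bases at antigen receptor joints in lymphoid precursors, was at 181, 297, 93.2 and 192 CPM in pDC. It had no UMI in either cDC population and at most 0.179 CPM in B-gated cells, and a UMI was found in 64.5%, 76.9%, 60% and 66.7% of pDC but in 0.0544%, 0.136%, 0 and 0% of B-gated cells. Ighm, the heavy chain of IgM, was at 887, 709, 761 and 1049 CPM in pDC and at 1204, 1096, 1052 and 1054 CPM in B-gated cells, the highest pDC sample just under the lowest B-gated one. All other cells had 416, 510.3, 133 and 232 CPM. Ebf1, a factor of B cell commitment, was at 25.8, 74.2, 5.18 and 0 CPM in pDC and at 5173, 5529, 4220 and 5032 CPM in B-gated cells. Of 12 such genes, Dntt, Ighm and Iglc3 were higher of 4 tested against cDC1-gated and cDC2-gated cells. Against B-gated cells Dntt and Iglc3 were higher and 5 lower, of 8, Vpreb3, Ebf1, Pax5 and Cd79b among them, and against all other cells Dntt and Ighm were higher and Ebf1 and Pax5 lower, of 5. All genes tested were 11.8%, 16.5%, 8.66% and 6.93% higher and 6.49%, 12.4%, 6.19% and 8.12% lower. Over all 4 samples Ighm no longer counted against all other cells. Cells with Cd79a, which the B gate requires, were left out of pDC, so low Ebf1, Pax5 and Cd79b there are in part fixed.

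All other cells held much immunoglobulin RNA. Igkc, the kappa light chain, was at 207, 833, 150.1 and 66.6 CPM in pDC and at 4626, 17575, 4131 and 2820 CPM in all other cells, in the same order of samples. Ighm in pDC did not have that order, being highest in sample 4. Iglc3, a lambda light chain gene, was at 258, 198, 150.1 and 241.5 CPM in pDC and at 44.5, 58.7, 47.25 and 39.6 CPM in B-gated cells. Its near copy Iglc2 was at 11.5, 57.7, 25.9 and 33.3 CPM in pDC and at 179, 262, 93.8 and 111 CPM in B-gated cells, and how reads are divided between the copies is uncertain. The part of free RNA in these values was not tested.

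Of 13 cytokine receptor genes listed, all tested, 3 were higher and 3 lower than in cDC1-gated cells, 0 and 5 than in cDC2-gated, 5 and 1 than in B-gated and 3 and 1 than in all other cells, with median log2 ratios of -0.13, -0.60, 0.60 and -0.43. Beside them stand the 11.8%, 16.5%, 8.66% and 6.93% higher and 6.49%, 12.4%, 6.19% and 8.12% lower among all genes tested. The counts over all 4 samples were 1 and 1, 0 and 2, 5 and 1, and 3 and 0 of 13. Flt3, the receptor on which dendritic cells depend, was at 181, 338, 295 and 399.8 CPM in pDC, at 236, 334, 325 and 211 CPM in cDC1-gated cells and at 29.5, 33.4, 54.2 and 32.4 CPM in all other cells. Il7r, the receptor chain for interleukin 7, was at 178, 256, 202 and 208 CPM in pDC and at 3.13, 0, 13.3 and 13.4 CPM in cDC1-gated cells. The receptor chain for GM-CSF encoded by Csf2ra, known for its part in cDC growth, was lower in pDC, at 45.9, 32.98, 41.4 and 24.99 CPM, than in cDC1-gated cells, at 117, 99.7, 137 and 148 CPM. Csf1r counted as higher than in cDC1-gated cells, but 21 of its 31 UMIs in pDC were in sample 3, and in all 4 samples it did not count.

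Of 18 genes of the endoplasmic reticulum and its stress response, all tested, 2, 5, 6 and 2 were higher than in cDC1-gated, cDC2-gated, B-gated and all other cells, with none lower, and the median log2 ratio was 0.65, 0.50, 0.95 and 0.60. Among all genes tested 11.8%, 16.5%, 8.66% and 6.93% were higher, so that the share against cDC1-gated cells was near the background. In all 4 samples 1, 2, 4 and 1 of the 18 were higher, beside 7.25%, 6.15%, 6.16% and 4.70% of all genes tested. Xbp1 and Herpud1 were higher in each of the 4 contrasts, but over all 4 samples Herpud1 no longer counted against cDC1-gated cells. Xbp1, the factor that builds secretory capacity, was at 207, 214, 336.5 and 358 CPM in pDC and at 42.8, 90.1, 43.9 and 26.9 CPM in B-gated cells. It stood at 94.03, 147, 147 and 136 CPM in all other cells, and in all 4 samples it no longer counted there. Manf, a secreted stress protein, was at 362, 289, 217 and 275 CPM in pDC and at 97.9, 109.9, 81.7 and 61.75 CPM in B-gated cells.

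Of 8 survival genes listed, 7 were tested, with 4, 4, 1 and 2 lower against the 4 populations in the same order, none higher, and median log2 ratios of -1.31, -1.02, -0.21 and -0.84. Of all genes tested 6.49%, 12.4%, 6.19% and 8.12% were lower. Over all 4 samples 4, 1, 1 and 2 of the 7 survival genes were lower, beside 4.34%, 3.83%, 4.27% and 4.56% of all genes tested. Bcl2a1b, an antiapoptotic member of the Bcl2 family, was at 63.1, 41.2, 36.2 and 8.33 CPM in pDC and at 256, 158, 538 and 385 CPM in cDC1-gated cells. It has near-identical copies, so its reads may be divided among them. Bcl2, on which pDC are known to depend, was at 37.3, 8.24, 31.1 and 16.7 CPM in pDC, below 114, 112, 133 and 142 CPM in B-gated cells. Of the inflammasome genes 1, 4, 1 and 3 were lower of 6, 6, 5 and 5 tested, beside 6.49%, 12.4%, 6.19% and 8.12% of all genes tested, none was higher, and the median log2 ratios were -0.78, -1.70, 0.17 and -1.51. With all 4 samples required, 0, 2, 0 and 1 of them were lower and none was higher. Nlrp3, its sensor, was at 40.2, 82.4, 212 and 83.3 CPM in pDC and at 326.5, 166, 451 and 438 CPM in all other cells. Without the 11 cells rich in monocyte-macrophage or fibroblast markers it was at 6.89, 39.3, 113 and 0 CPM in pDC, and 1 cell held 78.6%, 50%, 43.9% and 50% of its UMIs.

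Ahr, the receptor that the series is about, was detected in the pDC of each sample (gene at chr12:35497974-35535038, minus strand, GRCm38). It was at 164, 198, 135 and 249.9 CPM in pDC, with intervals of 123.9 to 212, 126.8 to 294, 87.9 to 197 and 168.6 to 357 CPM that overlap from sample to sample. cDC1-gated cells held 519, 622, 451.5 and 824.5 CPM and B-gated cells 76.9, 87.3, 91.8 and 67.3 CPM. The log2 ratio to cDC1-gated cells was -1.68 to -1.60 over the 4 samples. An Ahr count does not assign a genotype to a sample. Of its target genes, Tiparp, a feedback inhibitor of AhR, was at 112, 140.2, 197 and 208 CPM in pDC and at 744, 663, 345 and 435 CPM in cDC1-gated cells. The feedback gene Ahrr had 1 UMI in all pDC. Of 8 genes of the pathway 4 were tested, and 1 was lower in pDC than in cDC1-gated cells (Ahr), 1 than in cDC2-gated cells (Tiparp) and 0 than in the others (of all genes tested 6.49%, 12.4%, 6.19% and 8.12% were lower), with none higher and median log2 ratios of -0.84, -0.35, 0.05 and -0.25. The Tiparp count rests on sample 1 alone and was lost over all 4 samples, while that of Ahr was kept. Without the 11 cells 2, 1, 1 and 0 of 3, 4, 4 and 4 tested were lower.

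Among 12 polyamine and arginine genes the counts were 2, 0, 0 and 0 higher and 0, 1, 0 and 1 lower of 8, 9, 8 and 10 tested and median log2 ratios of -0.10, -0.18, 0.05 and -0.80. All genes tested were 11.8%, 16.5%, 8.66% and 6.93% higher and 6.49%, 12.4%, 6.19% and 8.12% lower. Over all 4 samples 1, 0, 0 and 0 were higher and none was lower, and without the 11 cells none was higher and 0, 1, 0 and 1 were lower. Odc1, the enzyme that begins polyamine synthesis, was at 166.5, 140.2, 109 and 91.6 CPM in pDC and at 275, 321, 110.2 and 114.5 CPM in all other cells. Sat1, which starts polyamine breakdown, was at 88.97, 329.8, 124 and 117 CPM in pDC and at 278, 222, 358 and 347 CPM in all other cells. Of the genes induced by tissue dissociation 1, 0, 0 and 0 were higher and 0, 2, 0 and 0 lower of 6, 5, 6 and 7 tested, with median log2 ratios of 0.34, 0.28, 0.14 and -0.06. Over all 4 samples none counted in either direction, but without the 11 cells 1 of 6, 1 of 5, 2 of 6 and 2 of 6 were lower, beside 5.09%, 6.05%, 5.11% and 7.81% of all genes tested. Fos, the most familiar of them, was at 390.3, 247, 600.5 and 333 CPM in pDC and at 343.5, 459.7, 392 and 478 CPM in all other cells.

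Few pDC carried transcripts of dividing cells. A UMI of Mki67 or Top2a, genes of dividing cells, was found in 10 of 79 pDC (12.7%, exact 95% binomial interval 6.24 to 22.1), beside 29.3% of cDC1-gated, 24.7% of cDC2-gated and 16.96% of B-gated cells and 20.3% of all other cells. pDC held 15 such UMIs in all. The interval of pDC includes the share of B-gated and of all other cells, and median depth was 18538, 13135, 16127 and 19330 UMIs in the cDC1-gated cells of the 4 samples, above that of pDC. The shares above are pooled over the samples. In samples 1 to 4 they were 16.1%, 15.4%, 10% and 6.67% in pDC and 26.7%, 53.85%, 29.6% and 8.33% in cDC1-gated cells. B-gated cells had 15.7%, 18.8%, 15.25% and 15.95%, below pDC in sample 1 only.

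**Figure D5:**
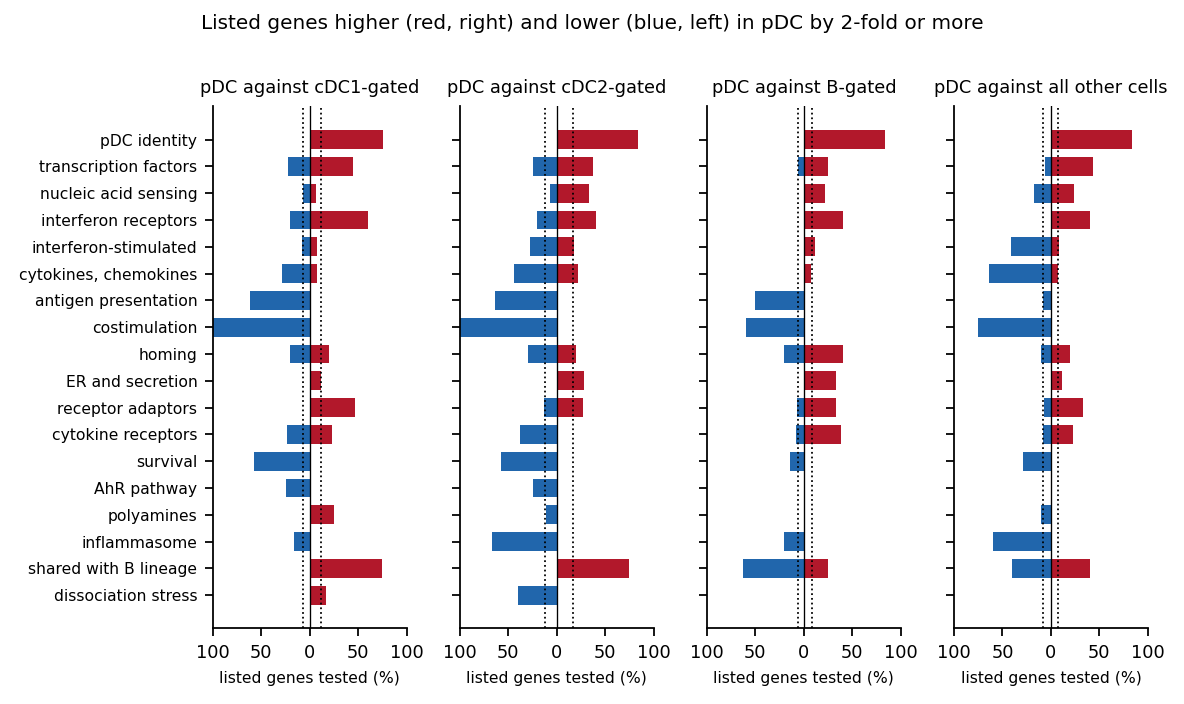
Share (%) of tested genes of each list that were higher (red, to the right) or lower (blue, to the left) in pDC than in cDC1-gated, cDC2-gated, B-gated and all other cells by at least 2 times, in samples 1 and 3 (cDC2-gated, sample 1). Dotted lines mark the share among all genes tested, 11.8% higher and 6.49% lower in the first panel. In the 2 cDC panels 19 and 21 of 25 genes of the identity list were higher, and all 5 and all 6 costimulation genes tested were lower.

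The 10 genes that varied most between samples within pDC included several known from other cells. Saa3, an acute-phase protein, was at 416, 0, 4468 and 1482 CPM in pDC, and at 757, 208, 3498 and 2073 CPM in all other cells, so that sample 3 was highest and sample 2 lowest in both. Without the 11 cells rich in monocyte-macrophage or fibroblast markers it was at 17.2, 0, 69.7 and 30.8 CPM. Chil3, a chitinase-like protein of monocytes and neutrophils, was at 23.0, 8.24, 750.7 and 1824 CPM, and at 10.3, 9.83, 34.8 and 51.3 CPM without those cells. Chil3 is among the markers by which those cells were picked, so its fall was fixed by that choice. Dcn was at 507 CPM in sample 3, all from 1 cell, and at 0 in the others. The remaining genes of this group were Pid1, Cxcl13, F13a1, Tmem267, Hmox1, Ptprk and Met. Hmox1, which encodes the heme-degrading enzyme of macrophages, was at 31.6, 8.24, 435 and 241.5 CPM in pDC and at 20.7, 0, 130.7 and 41.0 CPM without those cells. Ptprk was seen in 1 cell of sample 3 only, and Met in 1 cell of sample 1 held all 31 of that sample's UMIs.

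Most genes counted with all members were also counted without the 11 cells, but the 68 members kept are in both sets, so much of this overlap is built in. Counts rose in each contrast without the 11 cells, most for genes lower than in all other cells, from 286 to 487. In all 4 samples with at least 10 cells, 379 of the 428 genes higher than in cDC1-gated cells were also among the 457 (7.79%) higher without them, and 223 of the 256 lower among the 299 (5.09%). Against cDC2-gated cells the shared counts were 335 of 365 among 400 (6.78%) higher and 209 of 227 among 357 (6.05%) lower. Against B-gated cells they were 350 of 381 among 390 (6.36%) and 217 of 264 among 313 (5.11%), and against all other cells 276 of 295 among 316 (5.07%) and 262 of 286 among 487 (7.81%). On the identity list 19, 20, 21 and 20 genes were higher without them, of 25 tested, or 24 against B-gated cells. Beside those given above, survival genes lower than in cDC1-gated cells went from 4 of 7 to 2 of 6, cytokines and chemokines lower than in cDC2-gated cells from 1 of 12 to 3 of 10, and cytokine receptors lower than in all other cells from 0 to 3 of 13.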

How the data were processed

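Suspensions of CD45-enriched colon cells, 4 samples in all, were read as droplet single-cell RNA libraries. The authors deposited a matrix of UMI counts per gene and cell for each. The matrix headers name Cell Ranger 7.0.1, while the submitters' processing notes name Cell Ranger 5.0.0, STAR, Seurat and mm10. How introns were counted is not given in the sources used here. Free RNA was not removed.

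Counts were read with Python 3.11.15, scipy 1.17.1 and scanpy 1.11.5. The samples held 113806334, 135516016, 101579112 and 72509408 UMIs. UMIs were summed per population and sample and divided by their total (CPM). Intervals are exact 95% Poisson (levels) or binomial (shares). Scrublet, in scanpy, marked doublets at an assumed 0.8% per 1000 cells, and they were left in, their removal being an alternative.

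The cDC1 gate asked for 3 UMIs of Xcr1 and Clec9a, the cDC2 gate for 2 of Cd209a, both with 3 of H2-Aa and H2-Ab1, and the B gate for 3 of Cd79a and 1 of Ms4a1. Genes named were those of the lists, the 15 highest and 10 lowest by smallest log2 ratio over the 3 gated populations and 4 samples, and the 10 with the largest range of log2 level within pDC at a mean of at least 50 CPM. The rule, gates and lists were chosen with earlier results of these data known. A few genes of the lists are not reported here.

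No p-value was computed: the labels give no groups, the rule used the same contrast, and 4 samples could reach no two-sided exact sign-flip p under 0.125. The scripts were tested on simulated data.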

Additional observations from a re-analysis of the deposited data

How the results depend on the processing

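Only samples 1 and 3 had 20 pDC, so the counts of genes higher or lower turned on 2 samples (cDC2-gated: on sample 1) and on their depth. Pairs below are genes higher and lower in pDC than in cDC1-gated, cDC2-gated, B-gated and all other cells, in this order, against 707 and 390, 984 and 740, 540 and 386, and 435 and 510. With 50 CPM added in place of 10 they were 311 and 210, 437 and 365, 270 and 172, and 218 and 189. At a mean of at least 100 CPM they were 299 and 198, 331 and 290, 256 and 153, and 213 and 188. At a 4-fold ratio they were 195 and 129, 278 and 218, 180 and 109, and 119 and 89. With Siglech at 5 UMIs or more, sample 3 had under 20 pDC and sample 1 alone gave 1296 and 752 (cDC1-gated), 821 and 703 (B-gated) and 711 and 838 (all other cells). The same happened with marked doublets removed, at 1284 and 788, 844 and 737, and 766 and 939.

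Without 1 replicate the counts higher ranged from 707 to 1241 (cDC1-gated), 540 to 898 (B-gated) and 435 to 765 (all other cells), and those lower from 390 to 724, 386 to 737 and 510 to 826. Without sample 1 they were 1224 and 673, 898 and 737, and 765 and 783, and without sample 3 they were 1241 and 724, 819 and 664, and 705 and 826, each resting on 1 sample. Leaving out samples 2 or 4 changed none of these counts, and without sample 1 no sample was left for cDC2-gated cells, which otherwise kept 984 and 740. With at least 10 cells, chosen after seeing the data, all 4 samples gave 428 and 256, 365 and 227, 381 and 264, and 295 and 286. Leaving out the 11 cells rich in monocyte-macrophage or fibroblast markers as well gave 457 and 299, 400 and 357, 390 and 313, and 316 and 487.

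Without excluded genes the shares of pDC were 0.61%, 0.673%, 0.457% and 0.447%. Counts stayed within 1.5 times the main ones with 1 CPM added, without a filter on low levels, with scaling by the median of ratios or without mitochondrial, ribosomal and immunoglobulin genes, and with means over cells. At this depth 3 UMIs, a guide for a gene with none, are 8.61, 24.7, 15.5 and 25.0 CPM. No paired test was run because the contrasts that chose the pDC are given as descriptions, and no value comes from a test. The ratios of pDC to the other populations were taken within each sample.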
